A study of Mus musculus with 2 samples.

Results

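Complement genes were followed here as a set of 9 genes, taken by name and not by their values: C1qa, C1qb, C1qc, C1ra, C1s1, C3, C4b, Cfi and Cd59a. They are 9 of the 32285 genes counted, and all 9 had at least 1 UMI (a counted molecule) in 1 of the libraries. Whole cells of mouse retina were sequenced with the 10x 3' chemistry, as 1 control library and 1 light damage library. The control mice were dark-adapted for 18 h and received no light, whereas the light-damaged mice had 18 h of darkness, 30 min of white light at 5000 lux and 6 h of recovery in dim light. All mice carried floxed Tgfbr2 alleles and are described by the study as functionally wild type. They were on a Balb-C/CD1 background, were homozygous for the leucine variant of Rpe65 and were 6 to 9 weeks old. Each library pooled the retinae of 3 to 5 mice, so each condition is 1 sample, no difference between conditions has a replicate check and no p-value is given. Every interval is a 95% interval and covers counting error only.

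The complement system is a cascade of blood and tissue proteins that tags cells and debris for removal. In its classical pathway C1q, built from the chains A, B and C, recognises a surface, and the bound proteases C1r and C1s then cut C4 and C2, which leads to the cleavage of C3. The fragments of C3 coat surfaces and signal through receptors on phagocytes, factor I inactivates C3b and C4b, and CD59 stops the final membrane attack complex on the cell's own membrane. In the retina microglia are known as the main source of C1q, and glia and the retinal pigment epithelium (RPE) as sources of other components.

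The libraries held 30605284 UMIs (control) and 54413601 UMIs (light damage), of which 18.7% and 32.7% were unspliced. After filtering, 3548 control and 5611 light damage droplets remained, and 7 cell barcodes occurred among the kept droplets of both. Droplets were sorted into classes by marker genes that exclude the complement genes. There were 11 control and 40 light damage microglia-like droplets, 37 and 46 Mueller-like, 150 and 287 RPE-like, 175 and 92 cone-like, and 3076 and 4972 rod droplets. The control library held 3744 UMIs of Xist, an RNA of female cells, in its rods and the light damage library 2, so the pools also differed in sex, which cannot be told apart from light damage. Rod RNA from broken cells was present in other classes. The rod markers made up 64200 CPM (UMIs per 1000000 UMIs of the class) of the control microglia-like droplets and 5208 CPM of the light damage ones. In cone-like droplets they made up 96728 and 41958 CPM. From rod genes the share of free RNA was put at 64.6% of the control microglia-like and 6.29% of the light damage microglia-like UMIs, and of the control cone-like ones at 95.3%. This share counts rod fragments in a droplet as free RNA and may be overstated, and values from which free RNA was subtracted share that limit. The median gene with 50 UMIs or more in both libraries had a log2 ratio (light damage over control) of -0.67 in microglia-like, -0.51 in Mueller-like, -0.11 in RPE-like, -0.04 in cone-like and 0.44 in rod droplets.

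Promoters, from 250 bases before to 50 after the start of a transcript, were found for 6 of the 9 genes in RefSeq (build GRCm38.p6). Those of C1qb and C1qc are shown because these chains were counted together in the same droplets. Capitals mark GAGGAA, the core bound by ETS factors such as the myeloid factor PU.1, on either strand.
C1qb promoter, chr4:136886151-136886450, minus strand: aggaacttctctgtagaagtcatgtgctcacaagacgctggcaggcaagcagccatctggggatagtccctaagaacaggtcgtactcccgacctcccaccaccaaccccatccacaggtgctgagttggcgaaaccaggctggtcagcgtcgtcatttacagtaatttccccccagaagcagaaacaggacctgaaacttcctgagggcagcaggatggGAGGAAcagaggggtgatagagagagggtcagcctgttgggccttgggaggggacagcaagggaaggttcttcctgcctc
C1qc promoter, chr4:136892865-136893164, minus strand: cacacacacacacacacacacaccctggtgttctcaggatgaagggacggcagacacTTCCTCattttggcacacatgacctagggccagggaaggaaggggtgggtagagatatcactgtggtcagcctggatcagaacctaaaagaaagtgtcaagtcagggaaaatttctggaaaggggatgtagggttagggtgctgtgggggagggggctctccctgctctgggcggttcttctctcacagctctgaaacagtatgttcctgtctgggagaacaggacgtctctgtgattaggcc
Those of C1ra and C3 are shown because the genes had more UMIs in light-damaged RPE-like and Mueller-like droplets. These are raw counts, and both classes held more UMIs in all after light damage. For C3 a difference between the libraries was not detectable at this depth. Capitals mark TTCNNNGAA, a motif of STAT factors, and TTGCNNAA, a motif of C/EBP factors, on either strand.
C1ra promoter, chr6:124512371-124512670, plus strand: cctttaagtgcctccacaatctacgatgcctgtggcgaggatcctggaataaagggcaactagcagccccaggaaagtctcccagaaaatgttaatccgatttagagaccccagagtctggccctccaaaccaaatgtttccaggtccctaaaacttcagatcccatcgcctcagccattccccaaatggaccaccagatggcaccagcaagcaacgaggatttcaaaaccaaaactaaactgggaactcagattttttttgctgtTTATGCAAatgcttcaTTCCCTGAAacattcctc
C3 promoter, chr17:57228087-57228386, minus strand: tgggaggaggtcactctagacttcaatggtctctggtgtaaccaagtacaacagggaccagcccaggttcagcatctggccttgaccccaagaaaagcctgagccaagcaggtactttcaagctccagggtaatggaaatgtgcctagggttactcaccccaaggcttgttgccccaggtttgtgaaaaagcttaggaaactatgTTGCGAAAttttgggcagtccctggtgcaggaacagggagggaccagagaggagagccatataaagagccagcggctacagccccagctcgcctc
In C1qb the match began 30 bases before the transcript start, and in C1qc 193 bases before it. GAGGAA was in 28.3% of all 32851 promoters of this length, so a match is common. It was in 4 of the 7 promoters found for the complement genes, also in those of Cd59a and C1ra. The C1ra match, at bases 295 to 300 of the printed sequence, is not in capitals. TTCNNNGAA was in 8.30% of all promoters of this length and TTGCNNAA in 10.8%. C1ra held 1 match of each, which do not overlap, at bases 283 to 291 and 267 to 274 of the printed sequence. C3 held TTGCNNAA at bases 206 to 213. A match is a description of the letters and no binding site. These 3 motifs were picked from 13 that were searched.

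The first question was which cells carry the C1q chains. The genes lie next to each other on the minus strand of chromosome 4 (C1qb at 136880129 to 136886187, C1qc at 136889804 to 136893065 and C1qa at 136895917 to 136898803, GRCm38). Among the 5 classes nearly all UMIs of the 3 chains lay in microglia-like droplets, named by Cx3cr1, Tyrobp, Ctss and 7 further markers. All 10 markers had UMIs in both libraries, and of 7 markers of blood and border macrophages none had a UMI in control and 3 had in light damage (14 UMIs, 38.9 CPM in sum), with Lyve1, Pf4, Cd163 and Ly6c2 at 0 in both. In the control library the chains summed to 190 UMIs, or 7117 CPM (6141 to 8204), in 11 microglia-like droplets. In the light damage library they summed to 3282 UMIs, or 9116 CPM (8807 to 9433), in 40 droplets. No C1q UMI was counted in control Mueller-like, RPE-like or cone-like droplets, and rods held 1. Against the limit of 3 UMIs that a count of 0 allows, the control microglia-like level was at least 1618-fold above RPE-like, at least 1456-fold above cone-like and at least 254-fold above Mueller-like droplets. After light damage it was 4112-fold above rods (3001 to 5793).

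**Figure D1:**
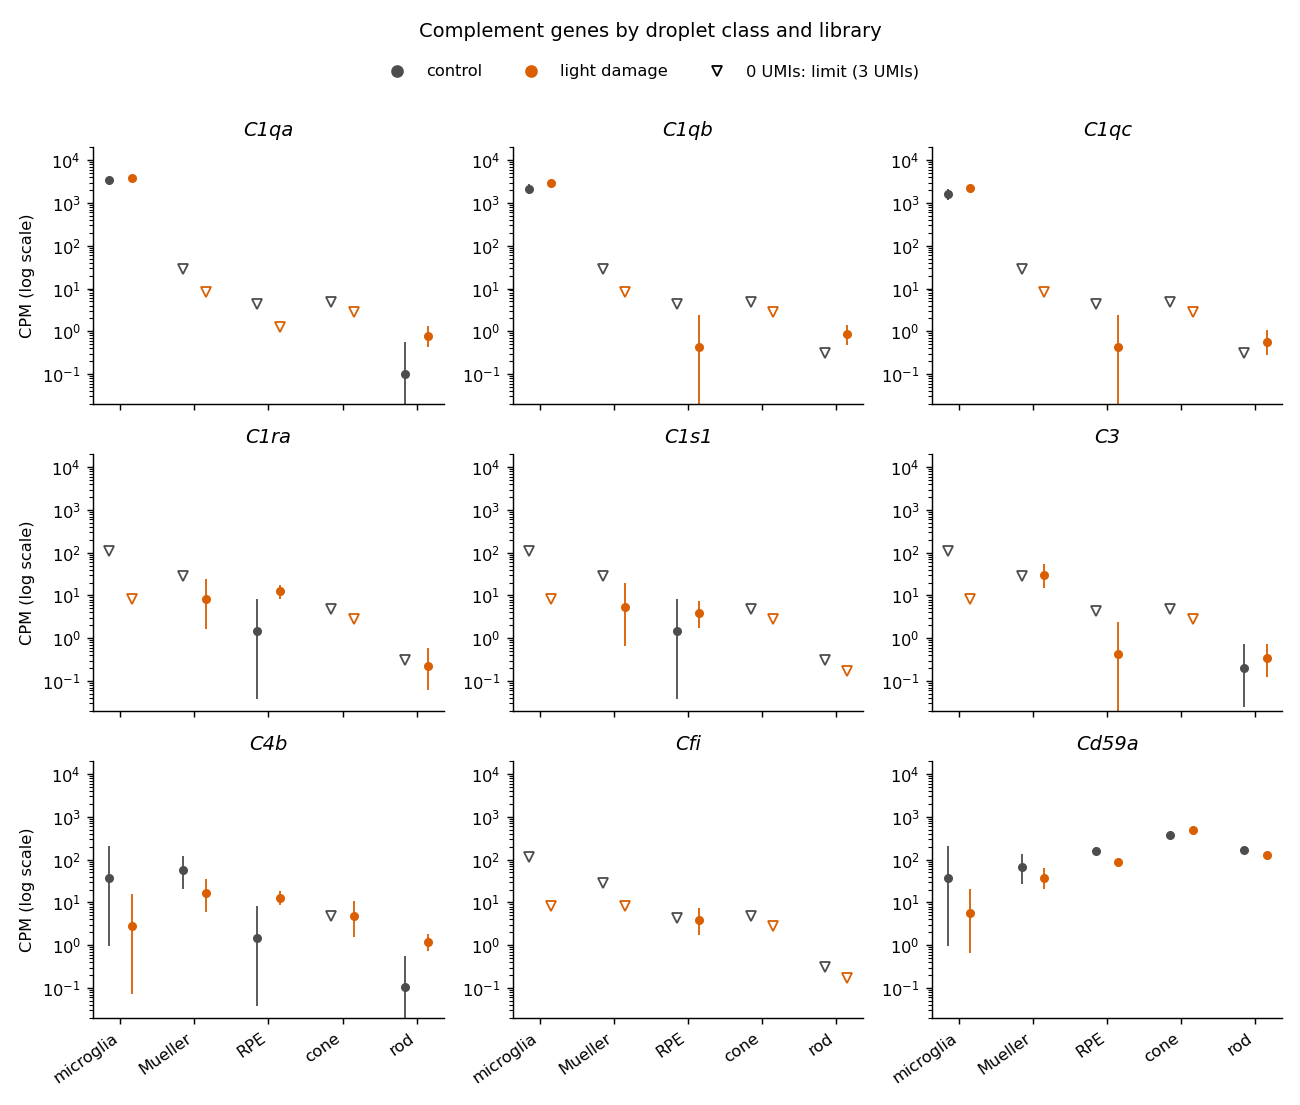
CPM of each complement gene (log scale) in the 5 droplet classes, control in grey and light damage in orange. Points carry 95% Poisson intervals of the summed UMIs and open triangles mark classes at 0 UMIs, drawn at the level of 3 UMIs. The C1q chains stand above 1000 CPM in microglia-like droplets alone, whereas Cd59a has UMIs in all 5 classes.

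Each chain was also seen in single droplets. C1qa had a UMI in 11 of 11 control microglia-like droplets (100%, 71.5 to 100%) and in 34 of 40 light damage ones (85.0%, 70.2 to 94.3%). In rods, which should lack it, C1qa had a UMI in 12 of 4972 light damage droplets (0.241%). Median depths were 2512 and 6560 UMIs in microglia-like droplets and 2854 in light damage rods. With every droplet thinned to 1000 UMIs, C1qa was found in 10 of 11 control (90.9%) and 29 of 40 light damage microglia-like droplets (72.5%), and the intervals overlapped. All 3 chains occurred together in 9 of 11 control and 31 of 40 light damage droplets, and 2 light damage droplets had none. The chains kept similar shares of the C1q UMIs in both libraries: C1qa took 47.4% (40.1 to 54.7%) of them in control and 42.6% (40.9 to 44.3%) in light damage, C1qb 30.0% and 32.9%, and C1qc 22.6% and 24.5%.

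Single droplets spread far more than the class sums differed. Across control microglia-like droplets the C1q sum ran from 796 to 20140 CPM with a median of 5720. Across the light damage ones it ran from 0 to 26602 CPM with a median of 5664. The ranges overlapped, and the medians were nearly the same.

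**Figure D2:**
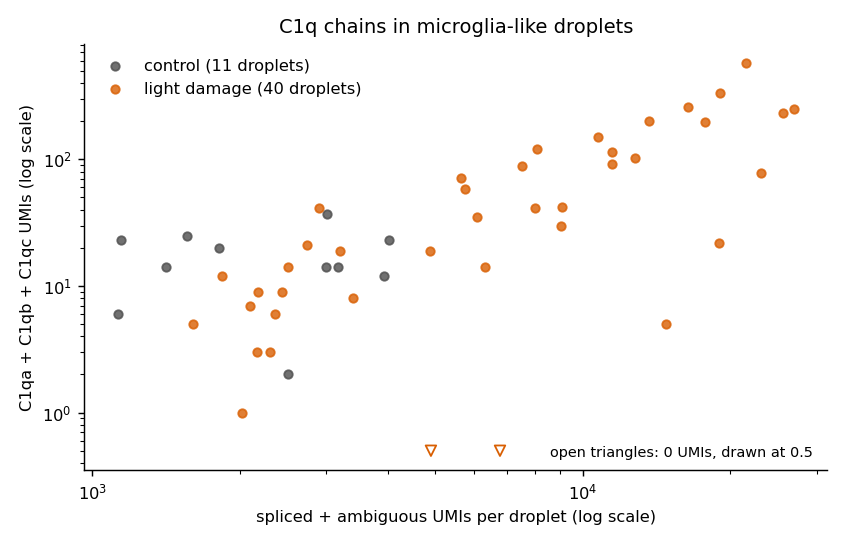
UMIs of the 3 C1q chains together against the depth of each microglia-like droplet, both on log scales, with control droplets in grey and light damage droplets in orange. The 11 control droplets lie between 2 and 37 C1q UMIs at low depth, and the 40 light damage droplets reach 572 UMIs, with 2 droplets at 0 drawn as open triangles at 0.5.

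The next question was whether light damage changed the level of C1q per microglia-like UMI. C1qa stood at 3371 CPM (2711 to 4144) in control and 3883 CPM (3682 to 4092) in light damage, a log2 ratio of 0.20 (-0.10 to 0.53). C1qb had 2135 and 3000 CPM, a log2 ratio of 0.49 (0.11 to 0.90), and C1qc 1611 and 2233 CPM, a log2 ratio of 0.47 (0.03 to 0.95). The intervals of C1qb and C1qc lie above 0, and that of C1qa includes it. The sum of the chains had a log2 ratio of 0.36 (0.15 to 0.58). Of the 9 complement genes, 3 had 10 UMIs or more in this class and none of them was 2-fold higher or lower, where 11.8% of 5754 genes were at least 2-fold higher and 38.2% at least 2-fold lower. Their median log2 ratio was 0.47, against -0.58 over all genes tested. The latter is lowered by control counts of 0, which are set to 3 UMIs. The direction depended on how free RNA was treated. Without droplets whose free RNA was put at 50% or more of their UMIs, 5 control and 37 light damage droplets remained and the log2 ratio of the C1q sum was -0.46. Subtracting the expected free RNA gave -0.51, while centring on the median gene of the class gave 1.03. That centre rests on 81 genes, in a class whose control free RNA was put at 64.6%. The part of free RNA in this centre was not tested.

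C1q outside named droplets also differed. Of 534 control C1q UMIs, 327 (61.2%) lay in barcodes of 50 UMIs or more that the filters removed, against 411 of 4173 (9.85%) in light damage. In barcodes under 50 UMIs, which hold free RNA, the chains stood at 11.9 CPM (6.67 to 19.6) in control and 172 CPM (156 to 189) in light damage. Light damage rods held 39 C1q UMIs, or 2.22 CPM (1.58 to 3.03), in 33 of 4972 droplets, against 1 UMI in 3076 control rods. Free RNA would give 25.2 of these UMIs by the share estimated from RPE genes. The same kind of estimate gave 16.1 UMIs in light damage RPE-like droplets, where 2 were counted. It gave 6.87 in Mueller-like and 90.2 in cone-like droplets, where none was, so it did not hold evenly over the classes. C1qa took 35.9% (21.2 to 52.8%) of the C1q UMIs in rods and 40.1% in barcodes under 50 UMIs.

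C1ra and C1s1 encode the mouse proteases C1r and C1s of the classical pathway and lie side by side on chromosome 6 (124512405 to 124523443 and 124530345 to 124542359). Both had most of their UMIs in light-damaged RPE-like droplets, which carry Rpe65, Ttr and Rgr. C1ra had 1 UMI in 150 control RPE-like droplets (1.47 CPM, 0.04 to 8.17) and 29 UMIs in 23 of 287 light damage droplets (12.4 CPM, 8.33 to 17.9). Its log2 ratio was 3.09 (0.49 to 8.44). C1s1 had 1 and 9 UMIs, or 1.47 and 3.86 CPM, and a log2 ratio of 1.40 (-1.45 to 6.85) whose interval includes 0. In Mueller-like droplets C1ra had 0 and 3 UMIs and C1s1 0 and 2, and neither had a UMI in microglia-like or cone-like droplets. The paralog C1rb had 0 and 13 UMIs in RPE-like droplets, and how the counting split reads between the copies was not tested.

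C4b, the mouse C4 gene on chromosome 17 (34728380 to 34743882), showed the same contrast in RPE-like droplets. It had 1 UMI in control (1.47 CPM) and 30 UMIs in 21 light damage droplets (12.9 CPM, 8.68 to 18.4), a log2 ratio of 3.13 (0.55 to 8.48). The interval of C4b lies above 0, as that of C1ra does. Its near copy C4a had no UMI in RPE-like droplets. Of the 4 complement genes with 10 UMIs or more in RPE-like droplets, C1ra, C1s1 and C4b were at least 2-fold higher in light damage, where 13.8% of 10258 genes were, and none was at least 2-fold lower (8.65% of genes). Each of the 3 had 1 control UMI and reached 10 UMIs only through light damage, so this count follows from the minimum and is no support for a difference.

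The light damage UMIs of C1ra and C4b were uneven among RPE-like droplets. Cluster 101, with 131 light damage droplets and 1 control droplet before the marker rule, held 25 of the 29 C1ra UMIs (20.9 CPM, 13.5 to 30.9) and 21 of the 30 C4b UMIs (17.6 CPM, 10.9 to 26.9). Its leading genes were Gsto1, Chil1, Serpina3n, 3930402G23Rik, Osmr, Prss22, Thbs4, Pglyrp1, Ptx3 and Gja1, among which Serpina3n and Ptx3 are known as acute-phase genes. None of them is an RPE marker used for naming. In 10% or more of its droplets 8 RPE and 6 Mueller markers were seen, against 9 and 6 in cluster 102. The identity of the cluster 101 droplets was not tested further. In cluster 102, with 35 control and 92 light damage droplets, C1ra was at 2.98 CPM (0.08 to 16.6) and 4.63 CPM (1.26 to 11.8), and the intervals overlapped. C4b had 0 and 8 UMIs there. Without the clusters that hold fewer than 5 droplets of 1 library, C1ra had 1 and 4 UMIs, under the minimum of 10. Its log2 ratio was 1.26. Of the 2 complement genes still tested, C4b was at least 2-fold higher. With droplets named from their marker UMIs, 149 control and 173 light damage RPE-like droplets remained. C1ra then had 1 and 21 UMIs and C4b 1 and 17. Light damage droplets that the marker rule left out of the Mueller-like class numbered 107 under that naming, in place of 4. Of the 10 microglial markers, 2 had UMIs in control and 4 in light damage RPE-like droplets (136 and 106 CPM in sum), and Cx3cr1, P2ry12 and Tmem119 were at 0 in both. The 10 Mueller markers summed to 13884 and 13920 CPM in RPE-like droplets, with Aqp4 and Kcnj10 at 0 in both. This is above their 11620 CPM in light damage Mueller-like droplets. The 10 RPE markers summed to 144419 and 113515 CPM in RPE-like droplets.

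C4b was seen in other classes at lower counts. Control Mueller-like droplets had 6 UMIs (56.1 CPM, 20.6 to 122), all in 1 droplet, and light damage ones 6 UMIs (16.2 CPM, 5.96 to 35.3) in 4 droplets. The log2 ratio was -1.79 (-3.69 to 0.11) and rests on that droplet. Cone-like droplets had 0 and 5 UMIs. Rods had 1 UMI in control and 21 UMIs in 18 light damage droplets (1.19 CPM, 0.74 to 1.82), a log2 ratio of 3.54 (0.91 to 8.91), and 15 of the 21 lay in rod cluster 1. The near copy C4a had 4 and 36 UMIs in rods, a log2 ratio of 2.32 (0.84 to 4.27), and reads of the copies may not be told apart. All C4b UMIs of rods came from droplets with an unspliced share of 25% or more, 1 of them in 746 control droplets and 21 in 3183 light damage droplets. Within these the log2 ratio was 1.74 (-0.90 to 7.11), and the interval includes 0. In light damage the C4b level did not differ beyond counting error between Mueller-like and RPE-like droplets (1.26-fold, 0.43 to 3.08), and in RPE-like droplets it was 10.8-fold above rods (5.97 to 19.8).

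**Figure D3:**
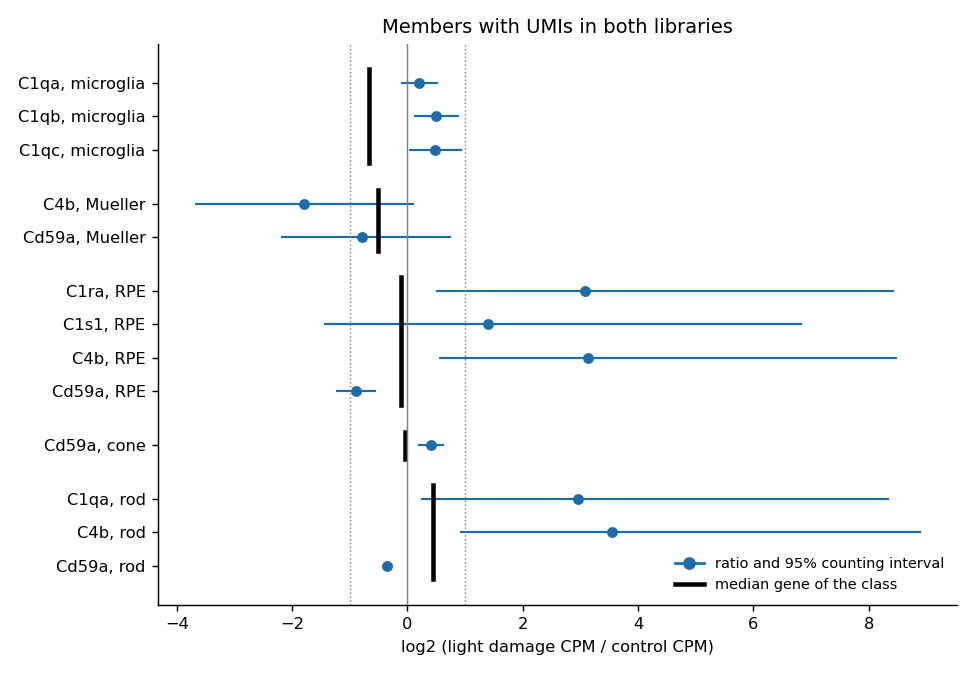
Log2 ratio of light damage over control CPM for each complement gene with UMIs in both libraries and 10 or more in all, by droplet class, with 95% counting intervals. Black bars mark the median gene of each class and dotted lines a 2-fold difference. C1ra and C4b in RPE-like droplets and C4b in rods lie above 0 with wide intervals, and Cd59a lies below 0 in RPE-like droplets and rods and above 0 in cone-like droplets.

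C3, the gene of the central component of the cascade on chromosome 17 (57203970 to 57228136), had few UMIs. In Mueller-like droplets, marked by Glul, Rlbp1 and Slc1a3, it had 0 UMIs in 37 control droplets and 11 UMIs in 6 of 46 light damage droplets (29.8 CPM, 14.9 to 53.2). The control droplets held only 106928 UMIs, the counting interval of the log2 ratio starts at -0.46, and a difference was not detectable at this depth. Of the 11 UMIs, 10 lay in cluster 110 (32.0 CPM, 15.3 to 58.8), which had no control droplet and was led by Cp, Tnfaip6, Adamts1 and Cd44. In cluster 106, which held droplets of both libraries, C3 had 0 control UMIs and 1 light damage UMI. With 3 complement genes tested in this class, none was 2-fold higher (background 21.9%) and C4b was 2-fold lower (background 19.4%), and the median log2 ratio of the 3 was -0.79 against 0.02 over all genes. The Mueller markers themselves summed to 29852 CPM in control and 11620 CPM in light damage, and the 5 endothelial markers to 1496 and 1682 CPM, with Cldn5 and Esam at 0 in both and UMIs of 2 markers in control and 3 in light damage. Flt1, 1 of these markers, was among the leading genes of cluster 106. The part of such RNA in the Mueller-like values was not tested. Rods held 2 and 6 C3 UMIs, and microglia-like and cone-like droplets none.

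Cfi, the gene of factor I on chromosome 3 (129835884 to 129875332), had no spliced or ambiguous UMI in control and 12 in light damage, over all barcodes. Of these, 9 lay in 7 RPE-like droplets (3.86 CPM, 1.77 to 7.33), 8 of them in cluster 102. The control limit of 3 UMIs in RPE-like droplets is 4.40 CPM, so a difference was not detectable at this depth.

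Cd59a, on chromosome 2 (104095801 to 104115354), encodes the membrane inhibitor CD59 and had UMIs in every class of both libraries. In control it stood at 380 CPM (332 to 432) in cone-like droplets, 167 CPM (159 to 175) in rods, 160 CPM (131 to 193) in RPE-like, 65.5 CPM (26.3 to 135) in Mueller-like and 37.5 CPM (0.95 to 209) in microglia-like droplets. Cone-like droplets were 2.28-fold above rods (1.98 to 2.62), and rods and RPE-like droplets did not differ beyond counting error (1.04-fold, 0.86 to 1.28). RPE-like droplets were 2.44-fold above Mueller-like ones (1.15 to 6.21), and the control microglia-like value rests on 1 UMI. In light damage the order was the same, with 502 CPM (460 to 547) in cone-like droplets, 131 CPM (125 to 136) in rods, 85.8 CPM (74.3 to 98.6) in RPE-like, 37.9 CPM (20.7 to 63.5) in Mueller-like and 5.56 CPM (0.67 to 20.1) in microglia-like droplets. The neighbours in that order above the microglia-like droplets then differed beyond counting error, the cone-like droplets by 3.84-fold over rods (3.49 to 4.23). Free RNA held 134 CPM of Cd59a in control and 141 CPM in light damage. These values lie below the cone-like levels, near those of rods and above the Mueller-like and light damage RPE-like ones. In Mueller-like droplets free RNA would give 2.64 of the 7 control and 5.63 of the 14 light damage UMIs. The ratio of RPE-like over Mueller-like droplets is not corrected for this. In microglia-like droplets free RNA would give 2.32 and 3.19 Cd59a UMIs, more than the 1 and 2 counted, so these are not read as a level.

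The difference of Cd59a between libraries had another sign in different classes. In RPE-like droplets the log2 ratio was -0.90 (-1.24 to -0.55), and in rods it was -0.35 (-0.44 to -0.26). In cone-like droplets it was 0.40 (0.18 to 0.63). Centring on the median gene gave -0.79 in RPE-like droplets, -0.79 in rods and 0.44 in cone-like droplets, with no change of sign. Without droplets of high free RNA 3 of the 175 control and 58 of the 92 light damage cone-like droplets remained, with 42 and 384 Cd59a UMIs and a log2 ratio of -0.83, which rests on those 3 droplets. After the subtraction of free RNA it was -0.47, so the sign in cone-like droplets depended on the treatment of free RNA. Cd59a was the 1 complement gene with 10 UMIs or more in cone-like droplets and was not 2-fold higher, where 20.4% of 9652 genes were, or 2-fold lower (5.61% of genes).

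By cluster, Cd59a in RPE-like droplets was 198 CPM (138 to 275) in control and 59.3 CPM (32.4 to 99.6) in light damage within cluster 103, whose intervals did not overlap. Within cluster 102 it was 146 CPM (108 to 193) and 108 CPM (86.8 to 132), and within cluster 104 it was 147 CPM (95.2 to 217) and 171 CPM (62.7 to 372), and there they overlapped. Cluster 101, with 131 light damage droplets, held 87 of the 200 light damage UMIs, at 72.8 CPM (58.3 to 89.8). In RPE-like clusters with 5 or more droplets of both libraries the log2 ratio was -0.68. In cone cluster 105 the values were 334 CPM (257 to 427) and 471 CPM (383 to 572). In rods the low values lay in cluster 3, with 1100 light damage droplets at 53.2 CPM (47.2 to 59.7) and 3 control droplets, and in cluster 7, with 230 light damage droplets at 23.0 CPM (11.5 to 41.1) and 5 control droplets. In rod cluster 2 control and light damage stood at 188 CPM (172 to 204) and 183 CPM (171 to 195). The intervals also overlapped in rod clusters 0 and 1. In rod cluster 4 light damage was higher, at 297 CPM (200 to 424) in 38 droplets against 169 CPM (151 to 188) in 598 control droplets. Without the clusters that hold fewer than 5 droplets of 1 library, the log2 ratio in rods was -0.01. Among rods with an unspliced share under 25%, Cd59a was 172 CPM in control and 174 CPM in light damage, a log2 ratio of 0.02 (-0.09 to 0.14). Among the other rods it was 144 and 105 CPM, a log2 ratio of -0.45 (-0.64 to -0.25).

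**Figure D4:**
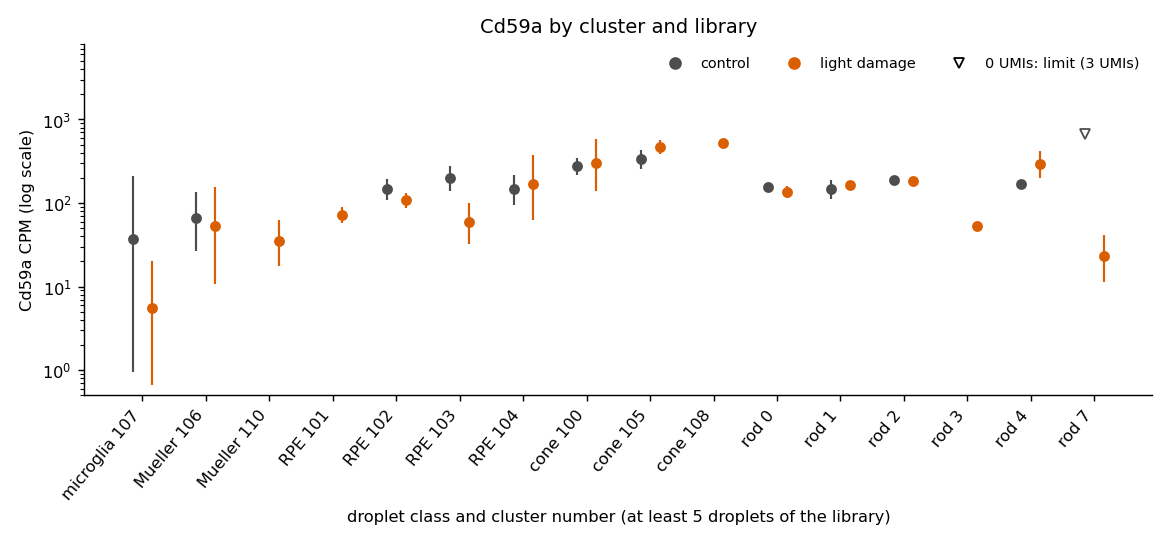
Cd59a CPM (log scale) by droplet class and cluster number, control in grey and light damage in orange, with 95% Poisson intervals; clusters are shown for a library with at least 5 droplets, and the open triangle marks 0 UMIs at the level of 3 UMIs. Light damage rod clusters 3 and 7 stand lowest among rods at 53.2 and 23.0 CPM, and the cone clusters stand above the rods of most clusters.

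In rods, 5 complement genes had 10 UMIs or more. C1qa, C1qb and C4b were at least 2-fold higher in light damage, where 31.5% of 13964 genes were, and none was 2-fold lower (2.44% of genes). C1qb had 0 control and 15 light damage UMIs and was at least 2.77-fold higher. Free RNA would give 10.1 of the 15 UMIs. With free RNA subtracted the log2 ratio of C1qb was -0.14, a value set by the floor of 3 UMIs in control. These 3 genes had at most 1 control UMI each and reached 10 UMIs only through light damage, so the count follows from the minimum. After the subtraction of free RNA 2 genes were still tested, and C4b was 2-fold higher.

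The other 52 genes of the pathway, listed by role, complete the picture. In microglia-like droplets 12 had 10 UMIs or more, of which 5 were at least 2-fold higher in light damage (C3ar1, Itgam, Itgax, C1qbp and Lrp1) and 1 lower (Vtn), beside 11.8% and 38.2% of all genes. Their median log2 ratio was 0.87, against -0.58 over all genes tested. C3ar1 and C5ar1, with 1 and 0 control UMIs, reached 10 UMIs only through light damage. The count and the median thus follow in part from the minimum and are no support for a difference. Free RNA would give 21.7 of the 22 control Vtn UMIs and 23.9 in light damage, where 21 were counted. This estimate did not hold evenly over the classes, and Vtn is not read as a difference here. C3ar1, the receptor of the fragment C3a, had 1 control UMI (37.5 CPM, 0.95 to 209) and 303 light damage UMIs (842 CPM, 749 to 942), a log2 ratio of 4.49 with an interval above 0. C5ar1, the receptor of C5a, had 0 and 74 UMIs, at least 1.83-fold higher. Itgam, which pairs with Itgb2 to form complement receptor 3, had 150 and 350 CPM, a log2 ratio of 1.22 (-0.17 to 3.12). Calr, a chaperone that binds C1q, had a log2 ratio of 0.88 (-0.07 to 2.03), and the interval includes 0.

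In RPE-like droplets 11 of the other genes were tested, none was 2-fold higher and 2 were 2-fold lower, C1rl and Cd59b, beside 13.8% and 8.65% of all genes. Clu, the gene of clusterin, an inhibitor of the terminal complex, had 11017 and 12444 CPM, a log2 ratio of 0.18 (0.14 to 0.21). Vtn, which encodes vitronectin, another inhibitor, had 117 and 68.2 CPM, a log2 ratio of -0.78 (-1.18 to -0.38), but free RNA would give 70.7 of its 80 control and 98.9 of its 159 light damage UMIs, so this is not read as a difference of RPE-like droplets.

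In Mueller-like droplets 8 other genes were tested, 2 higher (Serping1 and C1qbp) and 2 lower (Vtn and Lrp1), beside 21.9% and 19.4% of all genes. Vtn, with 19 and 30 UMIs, lay below the 24.7 and 42.2 that free RNA would give. Clu stood at 3339 and 5407 CPM, a log2 ratio of 0.70 (0.53 to 0.86). In cone-like droplets 8 were tested, 2 higher (Cfp and Cr1l) and 1 lower (Vtn), beside 20.4% and 5.61% of all genes. Vtn was at 1520 and 614 CPM, a log2 ratio of -1.31 (-1.45 to -1.16), and free RNA would give 737 of its 933 control and 554 of its 648 light damage UMIs. Vtn is itself a photoreceptor gene and stood at 1507 and 905 CPM in rods, a log2 ratio of -0.74 (-0.77 to -0.70). In rods 16 were tested, of which 9 were 2-fold higher and none lower, beside 31.5% and 2.44% of all genes. Masp2, a protease of the lectin pathway, had 28 and 153 UMIs in them, a log2 ratio of 1.60 (1.01 to 2.24). For Cd46, a membrane regulator, 30 and 126 UMIs gave a log2 ratio of 1.22 (0.64 to 1.85). Cd59b, the near copy of Cd59a, was also among the 9 higher genes, whereas Cd59a had a log2 ratio of -0.35 in rods. How the counting split reads between these 2 copies was not tested.

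Over the 10 sums of a class and a library, the genes outside the pathway whose log2(CPM + 1) was most like that of the C1q sum were Ctss, Fcer1g, Cx3cr1, Tyrobp and Cyth4 (Pearson r of 0.997 to 0.999). For C3 they were Gfap, Lif, Stc1, Slc14a1 and Cd24a (r of 0.961 to 0.993). For C4b they were Lsm1, Rest, Prkar1a, Ptpa and Wbp11 (0.871 to 0.908), and for Cd59a Plekhb1, Atp1b2, 1190005I06Rik and Tax1bp1 (0.914 to 0.929). Ctss, Fcer1g, Cx3cr1 and Tyrobp are markers that named the microglia-like class. Their likeness to C1q repeats that C1q lay in that class and is no further support. For C3 the values rest on the light damage Mueller-like sum (29.8 CPM), since every other sum was at 0.43 CPM or less. These points share 2 libraries and unequal depth, so the values are a description.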

How the data were processed

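Retinal cells of 2 libraries, 1 control and 1 light damage, were sequenced with the 10x v3.1 chemistry. The authors mapped the reads with salmon 1.10.1 and alevin-fry 0.8.1 to spliced and unspliced mm10 transcripts, kept reads of the transcript strand, and deposited UMI counts for every barcode as spliced, unspliced and ambiguous blocks. The deposited counts are raw. Further steps of the authors (removal of empty droplets, doublets and ambient RNA) are not in these values. Cell Ranger 7.0.1 is also listed in the submitters' processing notes.

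Values here are spliced plus ambiguous UMIs. Droplets needed 1531 (control) or 1589 (light damage) UMIs, the inflection of the barcode rank curve, and under 10% mitochondrial UMIs. The top 0.8% of Scrublet scores per 1000 droplets were left out (107 and 277), since the automatic threshold called 0 and 1. Scanpy 1.11.5 clustered 2000 variable genes, without complement genes, at Leiden resolution 1 (leidenalg 0.10.2). Clusters not of rods were clustered again, named by marker scores of at least 0.5 with 3 detected markers, and single droplets stayed in a class with 3 or more own marker UMIs and fewer of any other list, rods aside. The second clustering, score limits and single-droplet rule were chosen after seeing the data. Names were rebuilt here and may differ from the study's.

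UMIs were summed per class and library, from 26698 in control microglia-like to 17591388 in light damage rods, which sets the precision. CPM carry exact Poisson, shares Clopper-Pearson and log2 ratios exact conditional binomial intervals at 95%. A count of 0 is set to a floor of 3 UMIs for a bound. A gene counts as tested with 10 UMIs over both libraries and as called at 2-fold or more. The floor adds 2-fold lower calls where a class is small. The median gene is over genes with 50 UMIs in both. Free RNA is the profile of barcodes under 50 UMIs, and its share came from 6 rod genes, or from 6 RPE genes in rods. The log2 ratio, the call and the interval were tested on simulated Poisson counts in RPE-like droplets and rods. These were of genes with 50 UMIs or more over both libraries, and C1ra and C4b in RPE-like droplets had fewer. Filtering, clustering, naming and free RNA removal were not simulated. The genes named are the 9 complement genes, other pathway genes with 50 UMIs in 1 class and library, and the 5 genes most alike; some results under this rule are not reported here. Genes named as called, C4a, C1rb, Itgax and the genes leading clusters were added after their values were seen. The genes and lists were chosen with earlier results of these data known. Alternatives were other droplet, doublet, clustering and naming rules, free RNA removal, unspliced UMIs, centring and a split of rods.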

Additional observations from a re-analysis of the deposited data

Results flagged for a closer look

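Cd59a lay in opposite directions in different classes: the log2 ratio was 0.40 in cone-like droplets, -0.90 in RPE-like droplets and -0.35 in rods, with intervals on either side of 0. The difference between the classes was not tested. Rod marker levels in cone-like droplets were 96728 CPM in control and 41958 CPM in light damage. The sign in cone-like droplets depended on the treatment of free RNA, with a log2 ratio of -0.47 after its subtraction. Leaving out droplets of high free RNA gave -0.83 but left 3 control droplets.

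Among unspliced UMIs, which the comparisons do not use, Cd59a had 40 in light damage cone-like droplets (68.7 per 1000000 unspliced UMIs, 49.1 to 93.5) against 5 in control (23.3, 7.56 to 54.4).

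In barcodes under 50 UMIs, which lie outside the droplet classes, the C1q chains stood at 172 CPM in light damage against 11.9 CPM in control. The control microglia-like droplets numbered 11 and the light damage ones 40.

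Outside the 5 classes, 3 light damage droplets of the microglia-like cluster that the marker rule left out held 12 C3 UMIs in 22750 UMIs (527 CPM, 273 to 921). They also held 103 UMIs of S100a8, 215 of S100a9 and 39 of Plac8, which are known as genes of neutrophils and monocytes. The control library had no droplet in that cluster that the rule left out, and 2 control droplets left out of the RPE-like class held 110 UMIs of S100a9, 213 of Plac8 and none of C3.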

How the results depend on the processing

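The counts of genes at least 2-fold higher stayed within 1.5 times under the other settings except in 5 cases. Centring on the median gene, which rests on 81 genes in that class, gave 2 in microglia-like droplets (C1qb and C1qc) in place of 0. Clusters with 5 or more droplets of both libraries gave 1 of 2 tested in RPE-like droplets in place of 3 of 4. In rods, subtracting free RNA gave 1 of 2 tested in place of 3 of 5, rods under 25% unspliced gave 0 of 1, and the other rods gave 1 of 4. Fewer genes reached 10 UMIs in these settings. Among rods under 25% unspliced C1qa, with 1 and 3 UMIs, had a log2 ratio of 1.90. C1qa and C1qb in rods reversed, to -0.48 and -0.14 after subtracting free RNA and to -0.78 and -0.65 among rods with at least 25% unspliced UMIs, where the control count of 0 is set to 3 UMIs, so these are floor values. The C1q level of control microglia-like droplets moved from 7117 CPM to 12730 without droplets of high free RNA, 13796 after subtracting free RNA and 5743 with unspliced UMIs. That of light damage moved from 9116 CPM to 8574 without the rule for single droplets, 9667 after subtracting free RNA and 5972 with unspliced UMIs. Shares of at least 10% of droplets with a UMI went from 15 of 90 to 10 after thinning. Of 230 log2 ratios of single genes or of the C1q chains together, 199 stayed within the first interval. C3 in Mueller-like droplets, with its control count of 0 set to 3 UMIs, ran from -0.68 to 0.60. No paired analysis was possible because each condition has 1 library. The rule for single droplets, the 1-step clustering and the choice of clusters of both libraries were alternatives chosen after seeing the data. Depth limits C1s1, C3 and Cfi, and C1ra and C4b in RPE-like droplets rest on 1 control UMI each.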
